A study of Homo sapiens with 6 samples.

Results

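S100 proteins are small calcium-binding proteins, and 10 S100 genes were followed by symbol across 6 RNA sequencing libraries of HEC-1B, a cell line from a human endometrioid carcinoma. They are S100A2, S100A3, S100A4, S100A6, S100A10, S100A11, S100A13, S100A14, S100A16 and S100P, a named set of 10 among the 23284 gene symbols in the files and among 21 S100 family symbols there. All 10 were found, and 8 passed the filter on low values (at least 1 FPKM in at least 2 libraries). S100A14 and S100P did not. FPKM, a fragment count scaled to transcript length and library, is used throughout, so levels can be compared between genes.

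The libraries form 3 groups of 2, and their labels refer to aldehyde dehydrogenase (ALDH), an enzyme activity by which stem-like tumour cells are often recognised. The first group is labelled HEC-1B with high ALDH potential and ALDH-high accelerated (high-potential accelerated, HPA). The second is HEC-1B labelled ALDH-high accelerated (called parental accelerated here, PA), and the third is HEC-1B labelled ALDH-high to low (high-to-low, HTL). The study compared expression with and without a faster shift of cells from low to high ALDH1A1, tracked by fluorescence-activated cell sorting. No label gives a treatment, a time or a clone, and no source says whether the libraries of a group came from separate cultures, so the spread behind each p-value is that between these libraries and may be technical. The high-potential label has no high-to-low counterpart, so that label and the transition cannot be told apart when HPA is set against HTL.

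An S100 protein usually works as a dimer, and each chain holds a pair of EF-hand loops that bind calcium and then expose a surface for partner proteins. Inside cells these partners include annexins, cytoskeletal proteins and p53, and some S100 proteins are also secreted and signal through receptors such as RAGE and TLR4. Most of the genes lie in the epidermal differentiation complex on chromosome 1, and several members, among them S100A4 and S100P, are known for raised levels in carcinomas.

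ALDH1A1, the marker gene of the design, was 353 and 304 FPKM in the HPA libraries, 26.7 and 317 in the PA libraries and 28.4 and 9.45 in the HTL libraries. PA replicate 1 thus lay inside the HTL range in spite of its label, and the S100 differences that involve PA are also given without it. Relative to HPA replicate 1, the depth read from values that stand for single fragments was 0.807 to 1.07 in the other libraries. The library scaling is not given, so this relative depth may differ from the sequencing depth. Of 10 epithelial markers 7 were kept, led by KRT18 at 291 to 464 FPKM, and none was called in any comparison. KRT8 was 47.1 to 49.4 FPKM in HPA and 90.6 to 108 FPKM in the other 4 libraries (log2 difference from PA -1.04, limma adjusted p = 0.0863). EPCAM was lower in HPA (2.16 to 3.49 FPKM) than in the other 4 libraries (4.43 to 10.6) and KRT7 higher (11.6 to 13.7 against 1.27 to 5.27). The summed epithelial list was 568 to 655 FPKM in HPA, 677 to 740 in PA and 684 to 710 in HTL. CDH1, the E-cadherin gene, stayed at or below 0.0868 FPKM and ESR1 is listed at 0 in all 6 libraries. Markers of leukocytes reached at most 1.79 FPKM and of endothelium 0.920 FPKM. Of 10 fibroblast markers, COL3A1, DCN and FAP are listed at 0 throughout. The summed fibroblast list was 112 to 166 FPKM in the HPA, 18.6 to 309 in the PA and 281 to 329 in the HTL libraries, and THY1 alone ran from 8.04 FPKM in PA replicate 2 to 314 FPKM. Of 10 squamous markers 8 are listed at 0 in every library and KRT10 reached 54.3 FPKM. Of 10 glial and melanocyte markers MITF was the highest at 18.5 FPKM, and the summed list was 7.36 to 7.45 FPKM in the HPA, 10.3 to 22.0 in the PA and 13.4 to 26.9 in the HTL libraries. The part of these marker levels in the S100 values was not tested. In bulk RNA, fewer cells of a type and less RNA per cell cannot be told apart.

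HEC-1B cells expressed S100A10, S100A11, S100A4, S100A6, S100A13 and S100A16 at high levels and S100A2 at an intermediate level. S100A3 was low but above 0 in all 6 libraries, and S100P and S100A14 were at or near the detection limit. The mean over the 6 libraries was 477 FPKM for S100A10, 462 for S100A11, 363 for S100A4, 317 for S100A6, 228 for S100A13 and 125 for S100A16. It was 18.4 FPKM for S100A2, 1.70 for S100A3, 0.306 for S100P and 0.103 for S100A14. The mean of S100A10 exceeded that of 99.1% of the 12135 kept genes, and that of S100A16 exceeded 93.5%. Neighbours in this order overlapped in their ranges over libraries from S100A10 down to S100A13. S100A13 (lowest 179 FPKM) did not overlap S100A16 (highest 170.9), nor did S100A16 overlap S100A2, while S100A2 (lowest 5.61) and S100A3 (highest 5.74) met across libraries. The order S100A16, S100A2, S100A3 held in each of the 6 libraries. The 10 genes together made up 0.324 to 0.406% of summed FPKM. Small RNA genes took 9.10 to 18.7% of that sum, the most in HPA replicate 2, which had the lowest S100 share. Without small RNA genes the S100 share was 0.387 (HPA replicate 1) to 0.446% (HTL replicate 2).

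**Figure D1:**
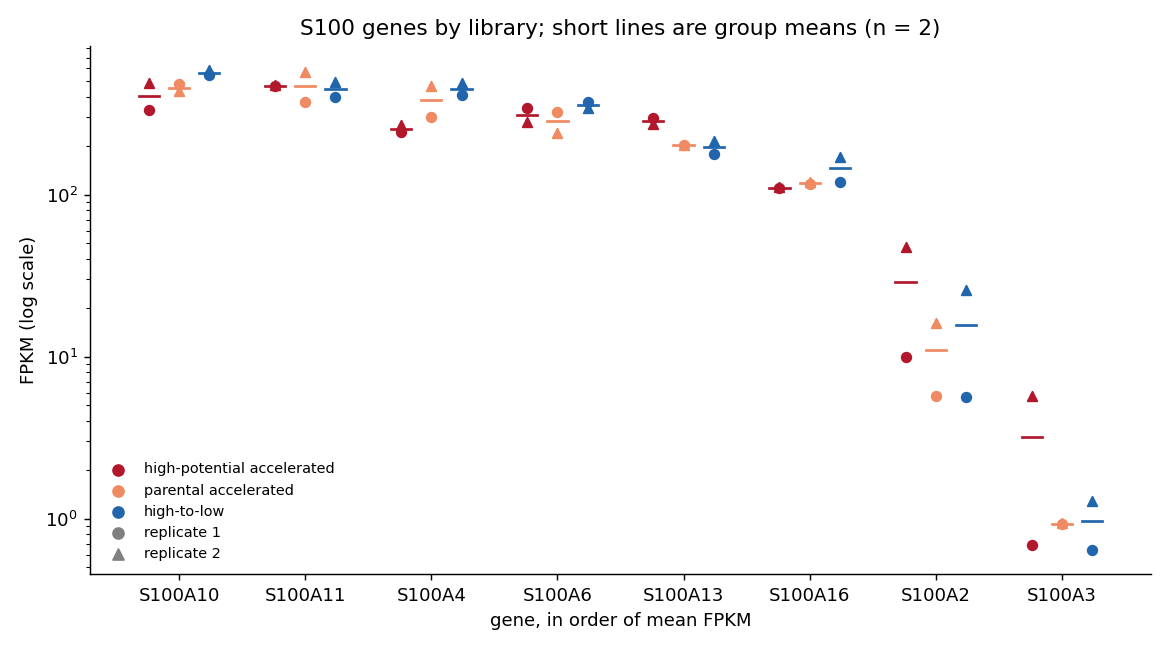
FPKM on a log scale for the 8 kept S100 genes in each library, with circles for replicate 1, triangles for replicate 2, colours for the groups and short lines for group means. S100A10 to S100A16 lie between 109 and 587 FPKM in every library, while S100A2 spans 5.61 to 47.5 FPKM, with replicate 2 the higher in each group.

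The expressed genes lie at both ends of the chromosome 1 cluster. In RefSeq order, S100A10 and S100A11 come first, and S100A6, S100A5, S100A4, S100A3, S100A2, S100A16, S100A14, S100A13 and S100A1 come last. Between S100A10 and S100A1 RefSeq lists 3 S100 pseudogenes without a value here and 74 genes outside the family, of which 44 are in the files under the same symbol. These include the filaggrin, late cornified envelope and small proline-rich genes of the skin barrier. None of the 44 was kept, 43 are listed at 0 in all 6 libraries, and TCHH, which encodes trichohyalin, was the exception with at most 0.741 FPKM. S100A8, S100A12, S100A7, S100A7A and S100A7L2 (a pseudogene in RefSeq), which lie next to that block, are listed at 0 in every library. S100A9 was detected in 4 of 6 libraries at up to 1.59 FPKM. S100A8, S100A9 and S100A12 are the calgranulins of myeloid cells. S100P alone among the 10 lies on another chromosome, 4.

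**Figure D2:**
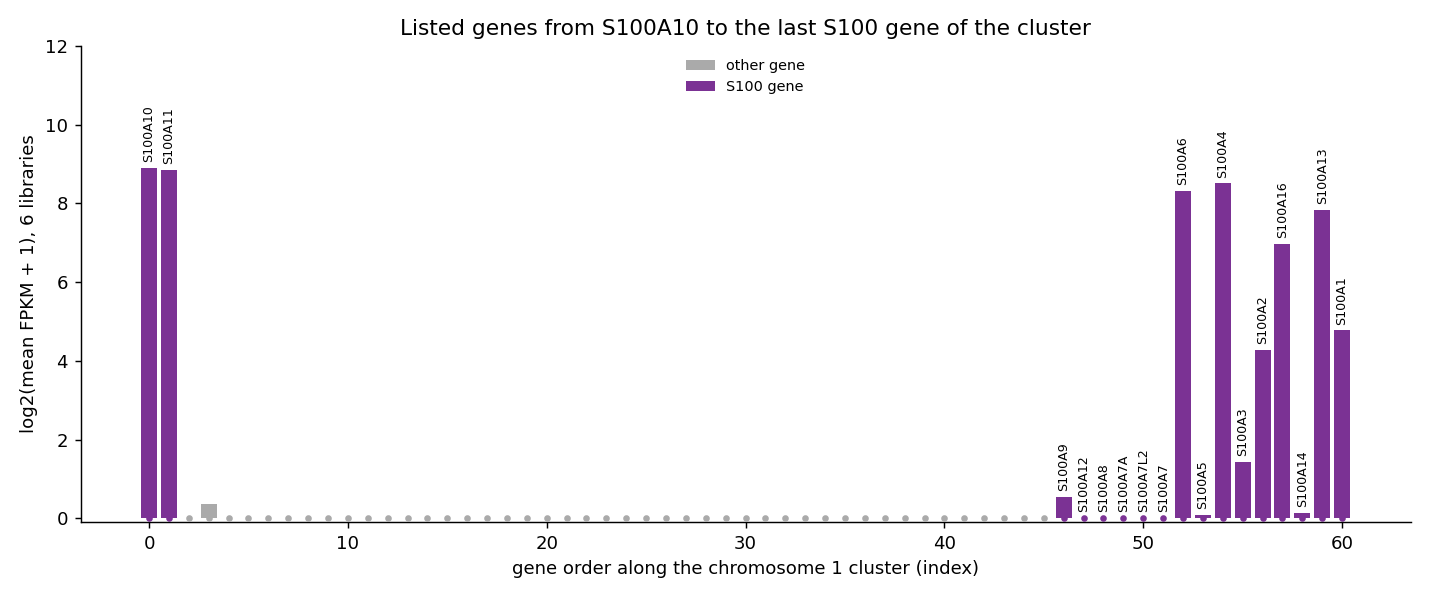
Mean level over 6 libraries, as log2(mean FPKM + 1), of each listed gene from S100A10 to S100A1 in chromosome order, with S100 genes in purple and other genes in grey. Of 44 other genes 43 are at 0, and the expressed S100 genes stand at the ends of the row.

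No S100 gene passed the threshold in any of 4 comparisons between groups in the model without a replicate term (limma on log2(FPKM + 1), Benjamini-Hochberg adjusted p under 0.05 over 12135 genes). Between HPA and PA libraries 0 of 8 kept members were called, against 0.494% of all genes, and 1 of 8 had an unadjusted p under 0.05, against 14.3% of all genes. Between HPA and HTL libraries 0 of 8 were called, against 0.799%, and 2 had an unadjusted p under 0.05, against 18.4%. Between PA and HTL libraries 0 were called, against 0.0165%, and 0 had an unadjusted p under 0.05, against 0.972%. For the mean of the accelerated groups against HTL 0 were called, against 0.0659%, and 0 had an unadjusted p under 0.05, against 9.25%. The HPA libraries enter 3 of these comparisons and the HTL libraries 3, so the comparisons are not independent. Counted without a test, both libraries of a group lay on 1 side of both libraries of the other for 3 of 8 members between HPA and PA (43.4% of all genes), 5 of 8 between HPA and HTL (51.1%) and 3 of 8 between PA and HTL (24.1%). The members' median log2 difference was 0.09, -0.07, -0.27 and -0.11 in that order, and the median of all genes was 0.01, -0.01, -0.02 and -0.02.

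**Figure D3:**
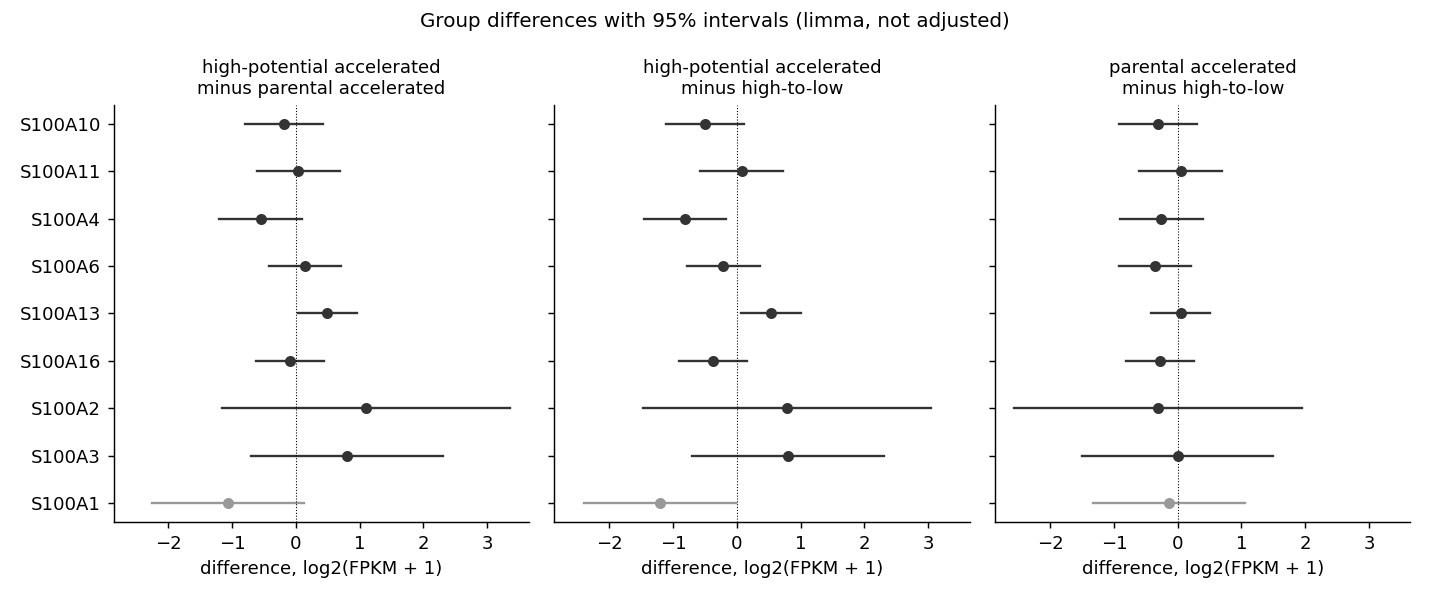
Differences between groups on the log2(FPKM + 1) scale for the 8 kept S100 genes and, in grey, S100A1, with 95% intervals from limma that are not adjusted for the number of genes. The intervals of S100A4, S100A13 and S100A1 for HPA against HTL and of S100A13 for HPA against PA lie off 0 without passing the adjusted threshold, and those of S100A2 are the widest.

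S100A4, known as metastasin, binds non-muscle myosin IIA and is tied to cell motility. It was 243 and 267 FPKM in the HPA libraries, 300.2 and 468 in the PA libraries and 412 and 486 in the HTL libraries. Both HPA libraries were the lowest of the 6, and the PA range overlapped the HTL range. Against HTL the log2 difference was -0.81 (SE 0.267, 95% interval -1.46 to -0.16, limma adjusted p = 0.193, unadjusted p = 0.0217). Against PA it was -0.55 (SE 0.267, limma adjusted p = 0.418), and -0.87 without PA replicate 1 or -0.24 without its replicate 2. The PA libraries differed from HTL by -0.26 (95% interval -0.90 to 0.39), and by 0.06 without PA replicate 1. The sign of that last difference rested on 1 library. MYH9, the heavy chain of the myosin that S100A4 binds, was 60.5 to 70.1 FPKM in the HPA and 47.8 to 57.4 in the other libraries (log2 difference from HTL 0.31, limma adjusted p = 0.446).

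S100A13 takes part in the release of FGF1 and IL-1 alpha, proteins that leave the cell without a signal peptide. It was 299 and 272 FPKM in the HPA libraries, 203 and 202 in the PA libraries and 179 and 215 in the HTL libraries. Both HPA libraries stood above the other 4, among which PA values lay inside the HTL range. The log2 difference was 0.54 against HTL (SE 0.193, 95% interval 0.07 to 1.0, limma adjusted p = 0.22, unadjusted p = 0.0298). It was 0.49 against PA (SE 0.193, 95% interval 0.03 to 0.96, limma adjusted p = 0.32, unadjusted p = 0.0408). With each library left out in turn the first difference stayed between 0.41 and 0.67 and the second between 0.43 and 0.56, with 0.50 without PA replicate 1. Its cargo genes FGF1 and IL1A were at most 0.212 and 0.166 FPKM. In RefSeq, S100A13 overlaps S100A1 and CHTOP, and the library kit is not known to keep the strand, so reads of these genes may not be separable.

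S100A16, a widely expressed family member, was 109 and 112 FPKM in the HPA libraries, 116 and 120 in the PA libraries and 120 and 170.9 in the HTL libraries. The 3 groups did not overlap, in that order, but HTL replicate 1 lay within 1 FPKM of PA replicate 2. Against HTL the log2 difference was -0.37 for HPA (95% interval -0.90 to 0.16, limma adjusted p = 0.425) and -0.28 for PA libraries (95% interval -0.81 to 0.25, limma adjusted p = 1). Without HTL replicate 2 these differences were -0.12 and -0.03, and the second was -0.26 without PA replicate 1. Between HPA and PA the S100A16 difference was -0.09 (95% interval -0.62 to 0.44, limma adjusted p = 0.897), and -0.11 without PA replicate 1. S100A4, S100A13 and S100A16 (3 of 8) had both HPA libraries outside the range of the other 4. Such separation, a reading chosen after the values were seen, held for 32.8% of all kept genes.

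S100A10, or p11, forms a heterotetramer with annexin A2 at the plasma membrane and is unusual in the family because its EF-hand loops do not bind calcium. It was 330 and 486 FPKM in the HPA libraries, 480 and 433 in the PA libraries and 545 and 587 in the HTL libraries. Both HTL libraries were above all 4 accelerated libraries, a separation that held in either direction for 13% of all kept genes. For the mean of the accelerated groups the log2 difference from HTL was -0.40 (SE 0.217, 95% interval -0.93 to 0.12, limma adjusted p = 0.614), and -0.44 without PA replicate 1. ANXA2, its annexin partner, was 347 and 530 FPKM in the HPA, 470 and 606 in the PA and 520 and 876 in the HTL libraries (log2 difference of the accelerated mean from HTL -0.50, limma adjusted p = 0.661). AHNAK, a scaffold that binds this complex, was 45.7 to 78.9 FPKM in the accelerated and 88.3 to 88.9 in the HTL libraries (-0.62, limma adjusted p = 0.531).

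S100A6, or calcyclin, was 340 and 279 FPKM in the HPA libraries, 325 and 240 in the PA libraries and 374 and 341 in the HTL libraries. The HTL libraries were again the highest, by less than 1 FPKM over HPA replicate 1. The difference of the accelerated mean from HTL was -0.28 on the log2 scale (95% interval -0.77 to 0.21, limma adjusted p = 0.708), and -0.39 without PA replicate 1. S100A6, S100A10 and S100A16 were the 3 of 8 members whose accelerated and HTL libraries did not overlap, and all 3 were lower in accelerated libraries, as were 6.73% of all kept genes. CACYBP and SUGT1, which encode proteins that S100A6 binds, were 70.8 to 131 and 17.9 to 38.2 FPKM, with groups that overlapped.

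Among the 8 kept members S100A11, which pairs with annexin A1, showed the smallest difference of HPA from both other groups. It was 468 and 472 FPKM in the HPA libraries, 370 and 568 in the PA libraries and 402 and 492 in the HTL libraries. The HPA libraries lay inside both other ranges. The log2 difference was 0.04 from PA (95% interval -0.61 to 0.69) and 0.08 from HTL (95% interval -0.57 to 0.73). Without PA replicate 1 the former was -0.27. These intervals leave room for a change in either direction. RefSeq lists 10 S100A11 pseudogenes by name, and how the authors treated reads that match several places is not given in the sources used here. ANXA1, its partner, was 597 and 1656 FPKM in the HPA libraries and 150 to 374 in the other 4 (log2 difference from HTL 2.48, limma adjusted p = 0.113).

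S100A2, a gene bound and induced by p53 family proteins and best known from keratinocytes, varied more between libraries of a group than between groups. It was 9.88 and 47.5 FPKM in replicates 1 and 2 of the HPA group, 5.70 and 16.2 in the PA group and 5.61 and 25.7 in the HTL group. Replicate 2 was the higher in all 3 groups, by 2.16, 1.36 and 2.01 on the log2(FPKM + 1) scale. A higher replicate 2 in all 3 groups held for 24.7% of kept genes, and a lower one for 24.5%. Among the other members replicate 2 was higher throughout for S100A3, S100A4, S100A11 and S100A16, and lower throughout for S100A6. Only 8 of 12135 kept genes (0.066%) had replicate 2 higher by at least 1 in all 3 groups, a count made after the values were seen. The labels do not say what a replicate number marks. A number at the end of the sample description begins alike in replicate 2 of HPA and PA, and otherwise in the other 4 libraries. In the model without a replicate term, the differences of S100A2 had wide intervals. They were 1.10 between the accelerated groups (95% interval -1.16 to 3.36, limma adjusted p = 0.665) and 0.79 between HPA and HTL (95% interval -1.47 to 3.05). The former was 0.0209 without HPA replicate 2, 2.18 without HPA replicate 1, 0.42 without PA replicate 1 and 1.78 without PA replicate 2. The latter was 1.87 without HPA replicate 1, 1.80 without HTL replicate 2, -0.29 without HPA replicate 2 and -0.21 without HTL replicate 1.

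S100A2, taken up here because of its wide spread, was set against Poisson counting of independent fragments. After multiplying by relative depth, the 6 S100A2 values stood in the proportions 82, 318, 44, 122, 50 and 199. They were whole to within 0.00043, in the order HPA, PA and HTL. These are taken as fragments, and the true numbers may be a common multiple. For HPA replicates 1 and 2 the exact Poisson 95% intervals were 65.2 to 101.8 and 284 to 354.9 fragments, which do not meet. The intervals cover counting error only, and amplified fragments without molecular tags are not independent molecules.

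**Figure D4:**
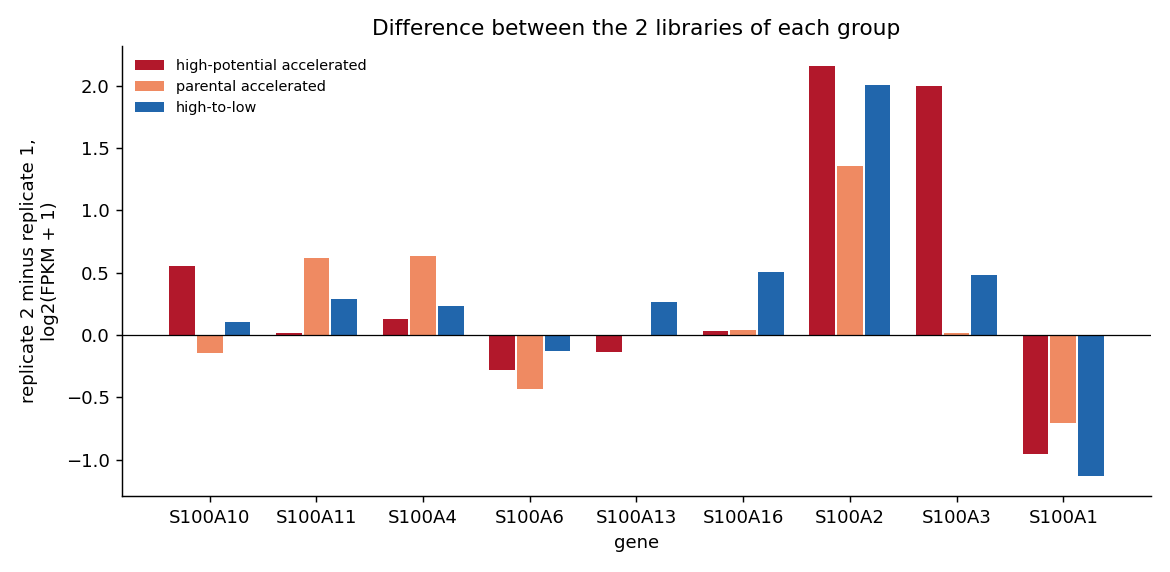
Replicate 2 minus replicate 1 on the log2(FPKM + 1) scale for each group and gene. S100A2 is higher in replicate 2 of every group, by 1.36 to 2.16, S100A1 is lower by 0.71 to 1.13, and S100A3 stands out in the HPA group at 2.0.

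S100A3, a cysteine-rich member best known from the hair cuticle, was at or under 1.28 FPKM in 5 libraries and 5.74 FPKM in HPA replicate 2. Its values were 0.686 and 5.74 FPKM in the HPA, 0.922 and 0.943 in the PA and 0.639 and 1.28 in the HTL libraries. They stood for 4, 27, 5, 5, 4 and 7 fragments. The exact Poisson 95% interval of the 27 was 17.8 to 39.3, above the 2.81 to 14.4 of the 7, the next highest. The log2 difference between HPA and PA libraries was 0.80 (limma adjusted p = 0.633), 0.79 without PA replicate 1 and -0.20 without HPA replicate 2, so its sign rested on HPA replicate 2.

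Promoters, the 250 bases before the start, are shown for S100A2 and S100A3, the members with the widest spread, for S100A6 as an abundant member, for S100A4, which was lowest in HPA, and for S100P, which was hardly detected. They are RefSeq sequences on GRCh38.p14, a build other than the authors' hg19, matched by symbol and written 5′ to 3′ on the gene's strand. Capitals mark matches on either strand to 3 motifs. The AP-1 motif was searched as TGACTCA. For the GC box the letters searched were GGGCGG, and in S100A6 the matches 79 and 75 bases before the start overlap. The TATA box was searched as TATAAA.
S100A2, chr1:153565845-153566094, minus strand: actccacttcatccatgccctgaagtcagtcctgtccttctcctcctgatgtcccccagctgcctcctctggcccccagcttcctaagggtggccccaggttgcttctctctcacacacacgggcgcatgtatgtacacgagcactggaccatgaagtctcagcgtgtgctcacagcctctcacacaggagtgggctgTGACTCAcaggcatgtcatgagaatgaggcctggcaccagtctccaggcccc
S100A3, chr1:153549259-153549508, minus strand: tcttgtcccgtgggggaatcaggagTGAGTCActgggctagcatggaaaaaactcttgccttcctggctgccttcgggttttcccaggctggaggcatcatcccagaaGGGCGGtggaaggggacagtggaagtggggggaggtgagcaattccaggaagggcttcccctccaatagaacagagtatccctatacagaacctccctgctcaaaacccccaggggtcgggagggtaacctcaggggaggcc
S100A6, chr1:153535992-153536241, minus strand: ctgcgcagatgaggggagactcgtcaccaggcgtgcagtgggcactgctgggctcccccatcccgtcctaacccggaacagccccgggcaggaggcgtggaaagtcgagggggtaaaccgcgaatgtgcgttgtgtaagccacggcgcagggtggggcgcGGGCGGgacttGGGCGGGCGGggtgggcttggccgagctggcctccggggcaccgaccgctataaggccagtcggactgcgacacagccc
S100A4, chr1:153545807-153546056, minus strand: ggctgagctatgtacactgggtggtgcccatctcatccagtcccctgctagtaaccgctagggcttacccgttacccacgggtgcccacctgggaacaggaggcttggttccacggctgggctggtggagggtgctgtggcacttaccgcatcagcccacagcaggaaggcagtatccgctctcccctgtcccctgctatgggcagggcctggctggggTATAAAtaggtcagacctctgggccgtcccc
S100P, chr4:6693628-6693877, plus strand: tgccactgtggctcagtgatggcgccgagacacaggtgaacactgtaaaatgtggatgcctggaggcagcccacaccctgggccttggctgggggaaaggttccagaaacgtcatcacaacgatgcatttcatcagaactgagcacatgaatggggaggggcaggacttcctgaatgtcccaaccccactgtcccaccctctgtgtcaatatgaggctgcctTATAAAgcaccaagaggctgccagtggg

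All 10 genes matched a promoter entry, with 14 starts in all. A gene is counted if any of its starts matched, whereas the shares of all promoters are per start. Counts of genes and these shares are therefore not on the same footing. TGACTCA was found in 2 of 10 genes, S100A2 (first of 2 starts, 52 bases before it) and S100A3 (225 bases before the start), and in 4.2% of all 35116 promoters in the table. GGGCGG was found in 6 genes, S100A3, S100A6, S100A10, S100A11, S100A13 (first of 3 starts) and S100A16 (second of 2), and in 42.6% of all promoters. TATAAA was found in S100A4, S100P and the second of 3 S100A13 starts, 31, 28 and 29 bases before the start, and in 10.7% of all promoters. S100A6 and S100A10 each had 24 CpG dinucleotides in the window, S100A11 had 15 and S100A13 had 15, 10 and 8 at its starts, against a median of 11 over all promoters. S100A3, S100A14 and S100P each had 4 CpG dinucleotides, and S100A2 had 4 and 3 at its starts. S100A4 had 7 and S100A16 had 1 and 6 at its starts, and both are abundant. These matches describe letters in a window and show no binding.

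S100P, first described in placenta, was 0.903 and 0 FPKM in the HPA, 0 and 0.331 in the PA and 0.280 and 0.322 in the HTL libraries. The values stood for 3, 0, 0, 1, 1 and 1 fragments. S100A14, an epithelial member, was 0.265 FPKM in HPA replicate 2 and 0.352 in PA replicate 2, in the proportion of 2 to 3 fragments, and is listed at 0 in the other 4 libraries. At a floor of 3 fragments no difference between groups was detectable for either gene. EZR and IQGAP1, whose proteins bind S100P, were expressed at 100.2 to 115 and 42.5 to 55.9 FPKM.

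Of the 11 other S100 family symbols, S100A1 was the only one kept. S100A1, best known from heart muscle, was 19.1 and 9.34 FPKM in the HPA, 37.5 and 22.5 in the PA and 48.0 and 21.4 in the HTL libraries. It was lower in both HPA libraries than in the other 4, by -1.20 against HTL (95% interval -2.39 to -0.01, limma adjusted p = 0.269) and -1.06 against PA (limma adjusted p = 0.402). With 1 library left out, the first ranged from -1.77 (without HTL replicate 2) to -0.64 (without HTL replicate 1). The second ranged from -1.54 (without HPA replicate 1) to -0.58 (without HPA replicate 2), and was -0.71 without PA replicate 1. Replicate 2 was the lower in every group, as for 24.5% of kept genes, the opposite of S100A2. The S100A1 values stood for 81, 32, 148, 87, 219 and 85 fragments. Because S100A1 overlaps S100A13 in RefSeq, reads of these genes may not be separable. S100A5, S100B and S100G stood at 2 fragments or fewer in each library, and S100A7, S100A7A, S100A7L2, S100A8, S100A12 and S100Z are listed at 0 in all 6.

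Among 21 genes for S100 partners and receptors, 16 were kept and 0 were called in any comparison, while 5 of 16 had an unadjusted p under 0.05 between HPA and PA (14.3% of all genes), 6 between HPA and HTL (18.4%), 0 between PA and HTL (0.972%) and 4 for the accelerated mean (9.25%). Of all genes, 0.494%, 0.799%, 0.0165% and 0.0659% were called. Those with the greatest differences from HTL in HPA libraries were PLAT, tissue plasminogen activator (log2 difference 2.73, limma adjusted p = 0.0964), and ANXA1. PLAT was 17.7 and 28.2 FPKM in the HPA, 2.17 and 10.2 in the PA and 1.92 and 3.28 in the HTL libraries. DLC1 was 0.554 and 0.687 FPKM in the HPA, 3.96 and 6.83 in the PA and 4.31 and 2.33 in the HTL libraries. Its log2 difference was -1.38 against HTL (limma adjusted p = 0.116) and -1.94 against PA (limma adjusted p = 0.0876). ANXA6 was 41.4 and 32.1 FPKM in the HPA, 86.6 and 49.2 in the PA and 97.0 and 87.8 in the HTL libraries (-1.32 against HTL, limma adjusted p = 0.104). BSG, or basigin, a receptor for extracellular S100A9, was 1266 and 877 FPKM in the HPA and 552 to 723 in the other libraries (0.71 against HTL, limma adjusted p = 0.256). AGER, which encodes RAGE, was 0.597 to 2.16 FPKM, TLR4 was at most 0.0861 and the calcium channel gene TRPV6 is listed at 0.

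Of 25 kept genes for other EF-hand proteins, 1 was called between HPA and PA (0.494% of all genes) and 1 between HPA and HTL (0.799%), each time TESC, the gene of tescalcin. TESC was 2.99 and 0.617 FPKM in the HPA, 85.8 and 65.6 in the PA and 106.1 and 56.3 in the HTL libraries. It fell by 4.90 (limma adjusted p = 0.02) and 4.95 (limma adjusted p = 0.0206) on the log2 scale. The first call was lost without HPA replicate 2 (limma adjusted p = 0.126) or PA replicate 1 (0.0809) or 2 (0.0799). The second was lost without HPA replicate 2 (0.103) or HTL replicate 1 (0.118) or 2 (0.0592). The size stayed similar, with log2 differences of -5.55 to -4.25 and -5.60 to -4.30 when 1 library was left out. CALM2, the most abundant calmodulin gene here, was 972 to 1251 FPKM and above each S100 gene in every library.

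The 3 members with the widest log2 range were S100A2 (2.88), S100A3 (2.04) and S100A4 (0.99), and the range of S100A2 exceeded that of 97.8% of kept genes. The median range of the 8 kept members was 0.78 and that of all kept genes 0.77. Among kept genes with a mean of at least 5 FPKM, DDX47 (Pearson r 0.997), TUBA1C (0.995) and PANK3 (0.993) followed S100A2 most closely over the 6 libraries. SLC41A2 (0.996), XPO4 (0.988) and GATA2 (0.984) were closest to S100A3, where 1 library sets the pattern, and ZNF511 (0.995), UBE2T (0.992) and ANAPC5 (0.989) to S100A4. All these genes were read in the same 6 libraries, so they share the groups and depths of those libraries. Pearson r was over 0.95 for 115 of 9024 genes with S100A2, 16 of 9025 with S100A3 and 66 of 9024 with S100A4.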

How the data were processed

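RNA came from a miRNeasy extraction, with cDNA by SMART-Seq v4 and Nextera libraries, per the labels' protocols; the kit is not stated to keep the strand. The deposited files hold 1 FPKM value per gene symbol and library, made by the authors. TopHat2 2.0.13, Cuffnorm 2.2.1 and hg19 are named in the submitters' processing notes. For the annotation, the library scaling and reads with several matches, nothing was given in the sources used here.

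The filter on low values (1 FPKM or more in 2 libraries or more) left 12135 genes. They entered 1 limma model (limma 3.58.1, R 4.3.3) of log2(FPKM + 1) with a variance trend, fitted to all 6 libraries (residual degrees of freedom: 3). Fold changes on this scale understate those of low genes. Tests were two-sided, with Benjamini-Hochberg adjustment over all 12135 genes. The fit was tested on 5 simulated sets for HPA against PA. Each set had 200 changed genes, drawn from all kept genes and all raised in HPA. It called 7.76% of genes with a simulated log2 change of 1, 66.3% with 2 and 93.3% with 4. Of unchanged genes it called 0.0536%. Most changes of 1, near the largest difference of a kept member (1.10), were thus missed. Relative depth came from the ratio shared by genes under 0.3 FPKM, and values times depth were called whole fragments within 0.03. There were 19 alternatives. The members, the gene lists and the comparisons were chosen with earlier results of these data known. Members were named in each comparison. Genes of other lists were named if called, if they encode a partner or receptor, or as the highest of a marker list. KRT7, KRT8, EPCAM, CDH1, ESR1, COL3A1, DCN, FAP, CALM2 and TCHH were named after their values were seen. RefSeq gave gene order and promoters by symbol. Protein sequences were not used here.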

Additional observations from a re-analysis of the deposited data

How the results depend on the processing

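Of 596 values for the 8 kept members under the alternatives, 561 kept their direction and side of the threshold, 34 changed sign and 1 passed the threshold. None of the 34 had an adjusted p under 0.05, and their largest size was 0.763. For 17 of 32 member differences no alternative changed the sign.

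With the replicate number as a block, S100 members called between HPA and HTL went from 0 to 1, S100A4 (limma adjusted p = 0.045, range over alternatives 0.045 to 0.529). The block moved all calls from 60 to 546 between the accelerated groups, from 97 to 944 between HPA and HTL, from 2 to 2 between PA and HTL and from 8 to 17 for the accelerated mean. S100A1 then passed in the first comparison (0.0364) and the second (0.0215). S100A2 did not pass in either (0.062 and 0.0958). The SE of S100A2 between the accelerated groups was 0.235 with the block and 0.932 without it. Replicate differences correlated over genes at 0.187, 0.158 and 0.281 between groups. Over kept genes, PA replicate 1 was more like HTL replicate 1 (Pearson r 0.964) than PA replicate 2 (0.932). PA replicate 2 was most like HTL replicate 2 (0.948), while the HPA libraries were most like each other (0.943). The labels give only a shared number, so the block is no part of the main results.

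With 1 library left out, log2 differences between the accelerated groups ranged from -0.20 to 1.80 for S100A3, -0.0745 to 0.36 for S100A6, -0.46 to 0.0914 for S100A10 and -0.27 to 0.34 for S100A11. Between HPA and HTL they ranged from -0.29 to 1.87 for S100A2, -0.20 to 1.80 for S100A3 and -0.0657 to 0.23 for S100A11. Between PA and HTL they ranged from -1.31 to 0.70 for S100A2, -0.24 to 0.24 for S100A3, -0.57 to 0.0633 for S100A4, -0.26 to 0.35 for S100A11 and -0.0873 to 0.18 for S100A13. For the accelerated mean they ranged from -0.76 to 1.25 for S100A2, -0.10 to 0.90 for S100A3 and -0.0919 to 0.22 for S100A11. Where a group kept 1 library, that library was assumed to vary like the other groups.

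With a term for the start of the description number, signs changed between HPA and HTL for S100A2 (-0.087) and S100A11 (-0.0774), between PA and HTL for S100A11 (-0.11), and for the accelerated mean for S100A2 (-0.64), S100A3 (-0.10) and S100A11 (-0.10). Quantile normalization gave -0.12 for S100A11 between the accelerated groups. S100A3 between PA and HTL, -0.0017 as reported, became 0.0298 and 0.0071 with pseudocounts of 0.1 and 0.5, 0.0022 with median ratio scaling and 0.0474 when rescaled without small RNA genes. The causes were not tested. The TESC call between the accelerated groups was lost with a pseudocount of 0.1 (limma adjusted p = 0.0503) and without a filter (0.0613), and that against HTL without a filter (0.0567). S100A3 has no value under a filter of a mean of at least 5 FPKM. The groups of 2 limit all tests, and an S100 difference that missed the threshold does not show that groups are alike.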
